A study of Mus musculus with 12 samples.

Results

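The genes described here are 9 core components of the sonic hedgehog pathway, taken by gene name, with earlier results of these data known. They are the ligand Shh, the receptor Ptch1, the signal transducer Smo, the transcription factors Gli1, Gli2 and Gli3, the ligand-binding inhibitor Hhip and the co-receptors Gas1 and Boc. All 9 were found among the 34347 genes of the deposited table, and all 9 passed the filter on low counts in every comparison.

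Sonic hedgehog is a secreted protein that binds Patched receptors on nearby cells. Without ligand, Ptch1 keeps Smoothened (Smo) inactive and the Gli factors are processed largely to repressors. With ligand, Smo is released at the primary cilium and Gli activators switch on target genes, which include Gli1, Ptch1 and Hhip, so that these genes serve as readouts of pathway activity. In the mouse tooth, Shh is made by the thickened dental epithelium and later by the enamel knot, and is known to signal both within the epithelium and to the mesenchyme around it.

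RNA was sequenced from dental epithelium and dental mesenchyme of wild-type C57BL/6 mouse embryos at 2 embryonic ages, E13.5, when the tooth germ is a bud, and E11.5, when the dental epithelium is a thickening of the jaw surface. The groups were E13.5 epithelium, E13.5 mesenchyme, E11.5 epithelium and E11.5 mesenchyme, with 3 libraries in each and 12 in all. Tooth germs were dissected at E13.5 and whole mandibles at E11.5, incisor and molar regions were both taken, and the tissue layers were parted with the protease dispase, so that stage and the kind of piece dissected cannot be told apart. The labels speak of pooled RNA and do not tie a library to an embryo, and p-values therefore measure the spread between these libraries only. In bulk tissue, fewer cells of a type and less RNA per cell cannot be told apart.

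The libraries held 70134554 to 79349382 estimated counts each. Levels are given as FPKM, fragments scaled by transcript length and by the fragments mapped in the library, which allows comparison between genes of different length. The labelled tissues were checked with marker lists, and all 15 epithelial markers rose in E11.5 epithelium relative to E11.5 mesenchyme and 14 of 15 in E13.5 epithelium relative to E13.5 mesenchyme. The mesenchyme markers were not absent from the epithelium. Their median level was 30.3%, 16.5% and 80.5% of the mesenchyme mean in replicates 1, 2 and 3 of E13.5 epithelium, and 76.7%, 73.0% and 62.0% in those of E11.5 epithelium. Replicate 3 of E13.5 epithelium therefore stood apart from the other two, and it also had the lowest epithelial markers of its group. The library with an unnumbered name in each group, replicate 3 of both epithelia and replicate 1 of both mesenchymes, lay farther from its group than the numbered libraries lay from each other. The median absolute log2 difference was 0.145 to 0.268 in the 8 pairs that held an unnumbered library and 0.0533 to 0.101 in the 4 pairs of numbered ones.

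Tests were made with edgeR's quasi-likelihood test over all genes, and a gene passed at an adjusted p under 0.05. Of the members, Shh had the widest difference between the tissues at both stages. At E13.5, 1 of the 9 members was higher in epithelium (Shh) and 1 lower (Gli1), while 1.62% of the 20584 genes tested were called higher and 0.204% lower. At E11.5, 1 member was higher in epithelium (Shh) and 0 passed as lower, while 4.75% of 20063 genes were called higher and 1.63% lower. Of the members, 4 had an unadjusted p under 0.05 at E11.5, as did 4002 genes in all, and DESeq2 passed 3 members and 2482 of 20053 genes there. With the number in the library name as a block, which may pair the libraries of these E11.5 groups, 2 members (Shh, and Gli3 as lower) and 2324 of 20063 genes passed in edgeR, against 1 and 1280 without it.

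Between the stages some members fell and others rose, while Smo, Gli2 and Gli3 did not pass in either tissue. In epithelium, Shh and Gli1 fell at E13.5 relative to E11.5 and Boc rose, against a background of 5.47% of 20467 genes called higher and 3.01% called lower. In mesenchyme, Shh, Ptch1 and Gli1 fell and Hhip, Gas1 and Boc rose. There the background was broad, with 22.0% of 20271 genes called higher and 17.0% called lower, and a count of 3 members in either direction reads against those shares. The median log2 fold change of the 9 members was −0.17 in epithelium and −0.20 in mesenchyme, and that of all genes tested was 0.05 in epithelium and 0.01 in mesenchyme. The 2 tissue comparisons and the 2 stage comparisons share libraries, since each group enters one of either kind.

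**Figure D1:**
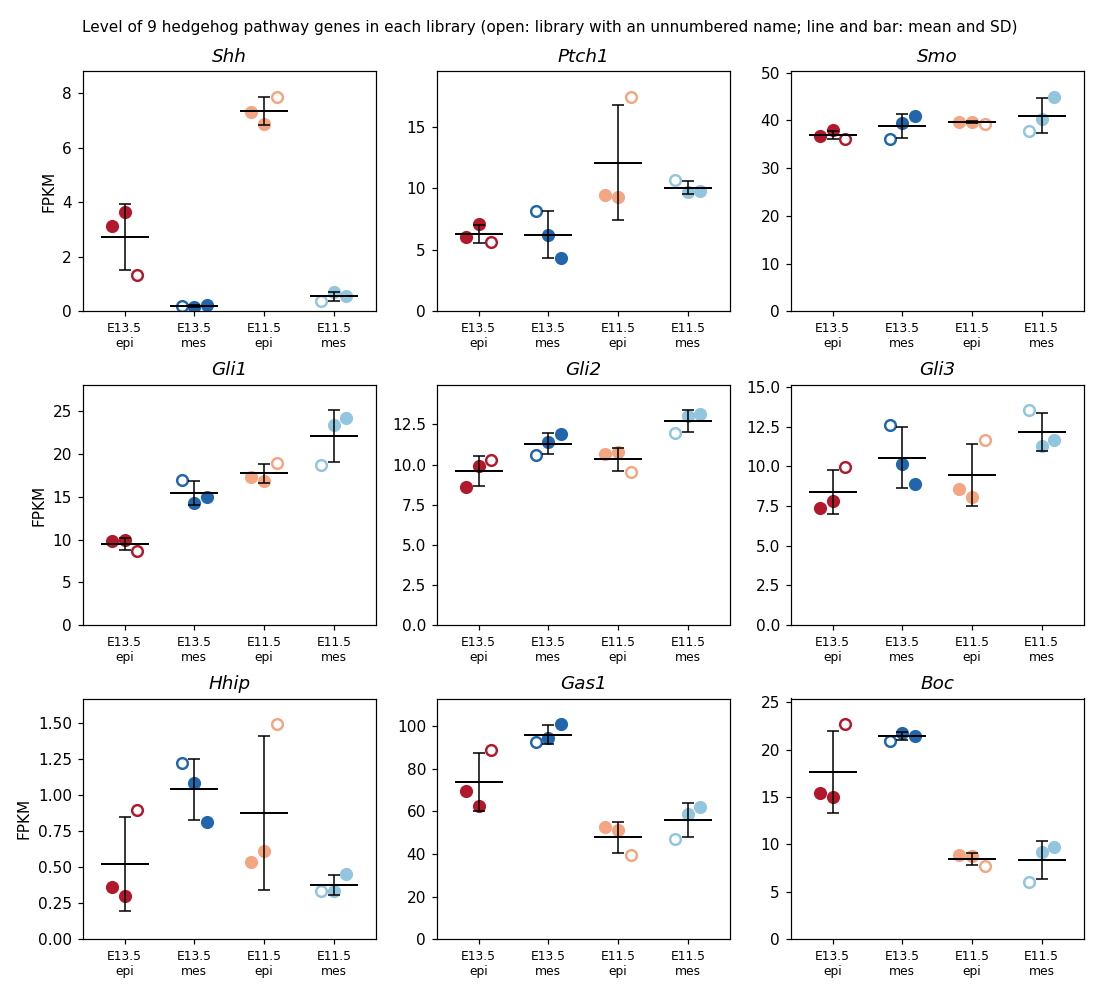
Level of each member in FPKM (vertical axes, linear, starting at 0) in every library of the 4 groups. Points are libraries, open points are the libraries with an unnumbered name, and lines and bars are the mean and SD of 3 libraries. Shh separated the tissues at both stages, Smo lay between 36.0 and 45.0 FPKM in every library, and Gas1 and Boc stood higher at E13.5 than at E11.5.

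**Figure D2:**
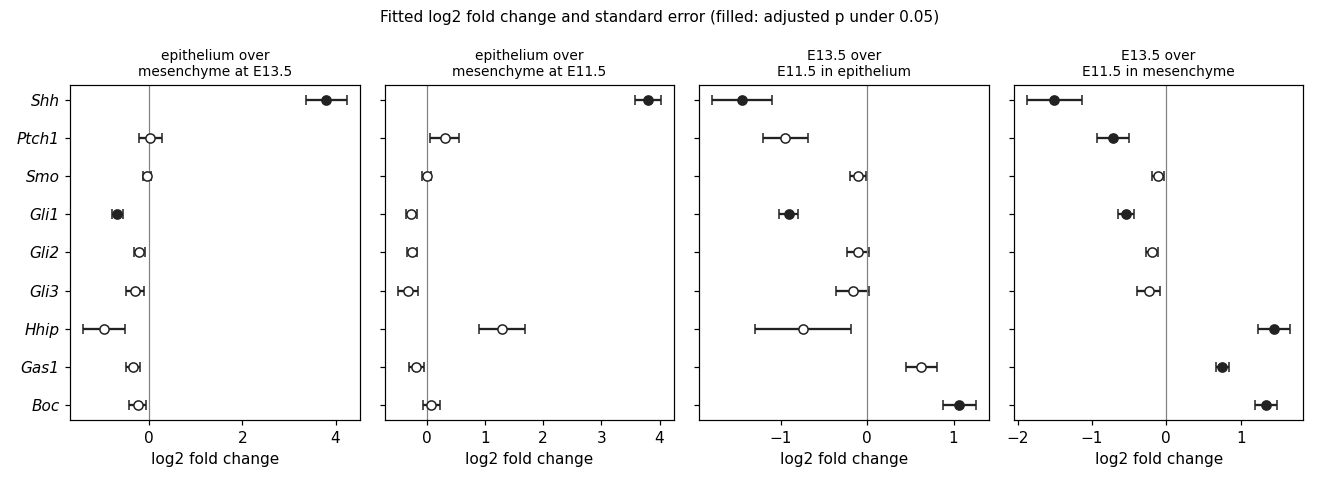
Fitted log2 fold change of each member (horizontal axes) with its standard error in the 4 comparisons, with filled points where the adjusted p was under 0.05. Shh was at 3.80 in both tissue comparisons, and in mesenchyme the stage change was negative for Shh, Ptch1 and Gli1 and positive for Hhip, Gas1 and Boc.

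The coordinates of the members are those of the deposited table, on the mouse build mm10. Shh (ENSMUSG00000002633) is at chr5:28456815-28467256 on the minus strand. Ptch1 (ENSMUSG00000021466) is at chr13:63508328-63573460, Gas1 (ENSMUSG00000052957) at chr13:60174405-60177365 and Hhip (ENSMUSG00000064325) at chr8:79965851-80058006, all on the minus strand. Gas1 is encoded by 1 exon, and the longest annotated transcripts of Ptch1 and Hhip have 24 and 13 exons. Boc (ENSMUSG00000022687) is at chr16:44485049-44558897, Gli1 (ENSMUSG00000025407) at chr10:127329882-127341974 and Gli2 (ENSMUSG00000048402) at chr1:118834132-119053619, again on the minus strand. Smo (ENSMUSG00000001761) at chr6:29735503-29761365 and Gli3 (ENSMUSG00000021318) at chr13:15463235-15730026 are on the plus strand. The sources do not say whether counting used the strand, and reads from antisense genes that share exonic bases cannot then be told apart. Of the exonic bases of Shh, 15.7% are shared with the antisense gene 9530036O11Rik, which was listed at 0 to 0.0322 FPKM, and of those of Gas1, 19.9% are shared with Gm48488, which was at 0.209 to 0.783 FPKM. Gli1 shares 5.31% of its exonic bases with the antisense Gm47200, which reached 0.0971 FPKM at most.

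RefSeq promoter windows of 300 bases, with 250 before and 50 after the annotated start, were matched for 6 members on GRCm38.p6, namely Ptch1, Smo, Gli2, Gli3, Hhip and Gas1. Those of Ptch1, which fell in mesenchyme, and of Hhip and Gas1, which rose there, are shown because these genes moved in opposite directions in one tissue. Capitals mark the GC box GGGCGG on either strand (CCGCCC on the other) and, in Gas1, the CCAAT box as well, and each run is read 5′ to 3′ on the minus strand. The windows are chr13:63565686-63565985 for Ptch1, chr8:80057959-80058258 for Hhip and chr13:60177486-60177785 for Gas1.
Ptch1 promoter: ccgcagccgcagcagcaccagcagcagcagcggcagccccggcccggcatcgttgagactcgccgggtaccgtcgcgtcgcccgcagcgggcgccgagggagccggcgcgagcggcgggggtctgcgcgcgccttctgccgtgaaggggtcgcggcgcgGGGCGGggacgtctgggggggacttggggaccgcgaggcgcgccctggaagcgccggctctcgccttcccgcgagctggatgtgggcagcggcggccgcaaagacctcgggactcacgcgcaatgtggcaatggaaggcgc
Hhip promoter: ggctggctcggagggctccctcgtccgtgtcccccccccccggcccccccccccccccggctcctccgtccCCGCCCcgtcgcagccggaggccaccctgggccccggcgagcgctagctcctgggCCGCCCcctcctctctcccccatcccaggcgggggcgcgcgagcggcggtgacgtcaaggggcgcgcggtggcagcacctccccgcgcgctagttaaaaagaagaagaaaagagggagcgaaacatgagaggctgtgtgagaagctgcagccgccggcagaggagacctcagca
Gas1 promoter: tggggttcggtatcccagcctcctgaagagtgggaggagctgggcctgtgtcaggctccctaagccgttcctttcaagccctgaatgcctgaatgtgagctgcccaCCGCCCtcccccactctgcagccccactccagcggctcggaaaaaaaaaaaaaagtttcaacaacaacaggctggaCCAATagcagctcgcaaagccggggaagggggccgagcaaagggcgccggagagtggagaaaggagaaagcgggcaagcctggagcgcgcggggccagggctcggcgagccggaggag
The GC box occurred in 5 of the 6 windows and in 35.7% of all 32851 promoter windows, and the CCAAT box in 1 of 6 and in 37.4% of all. The consensus letters for Gli binding, GACCACCCA or TGGGTGGTC on the other strand, were in 0 of the 6 windows and in 0.253% of all windows. The windows shown were rich in G and C, at 76.3% for Ptch1, 73.7% for Hhip and 62.3% for Gas1, against a median of 52.7% over all windows. The Ptch1 window starts from an internal start site within the deposited gene interval. The Gas1 window lies wholly upstream of the deposited Gas1 interval, which ends at chr13:60177365. A match is a description of letters and says nothing of binding.

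Shh, the ligand, was higher in epithelium than in mesenchyme at both stages and fell with stage in both tissues. It was at 3.14, 3.65 and 1.34 FPKM in the 3 libraries of E13.5 epithelium, against 0.212, 0.142 and 0.233 FPKM in E13.5 mesenchyme. The E11.5 values were 7.33, 6.86 and 7.88 FPKM in epithelium, against 0.374, 0.719 and 0.550 FPKM in mesenchyme. The epithelium libraries all lay above the mesenchyme libraries at either stage, and the groups did not overlap between the stages in either tissue. The lowest value of E13.5 epithelium belonged to replicate 3, the library with the highest mesenchyme markers of its group.

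The tissue difference of Shh was 3.80 ± 0.44 on the log2 scale (SE, n = 3 each) at E13.5, a 13.9-fold higher level in epithelium (adjusted p = 0.0347, edgeR). At E11.5 it was 3.80 ± 0.23, also 13.9-fold (adjusted p = 0.000115, edgeR). The E11.5 difference passed under all 17 alternatives tried and the E13.5 one under 8 of 17. The E13.5 call was lost without replicate 1 of E13.5 epithelium (adjusted p = 0.147, edgeR) or without any single E13.5 mesenchyme library (adjusted p of 0.153 to 0.207), while the log2 fold change stayed between 3.52 and 4.11 in the fits that left out 1 library. With replicate 3 of E13.5 epithelium left out it was 4.11 ± 0.28 (adjusted p = 0.000133, edgeR). In the fits that lost the E13.5 call, 0 genes of the whole table passed.

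Between the stages Shh fell in both tissues. In epithelium the log2 change at E13.5 relative to E11.5 was −1.45 ± 0.34 (adjusted p = 0.0469, edgeR), and without replicate 3 of E13.5 epithelium it was −1.13 ± 0.15 (adjusted p = 0.00526). Without replicate 1 of E11.5 epithelium the adjusted p was 0.155, without replicate 2 it was 0.145 and without replicate 3 it was 0.0885. Leaving out E13.5 epithelium replicate 1 gave an adjusted p of 0.151 and replicate 2 one of 0.0502. Of the whole table, 52 to 83 genes passed without replicate 1 or 2 of E11.5 epithelium or replicate 1 of E13.5 epithelium. Without replicate 3 of E11.5 epithelium 2349 did, and without replicate 2 of E13.5 epithelium 728. Without replicate 3 of E13.5 epithelium 3676 did. In mesenchyme the change was −1.50 ± 0.37 (adjusted p = 0.0114, edgeR), on 35 to 178 estimated counts a library, and it was −1.25 ± 0.42 without replicate 2 of E11.5 mesenchyme (adjusted p = 0.0599). Of the 15 epithelial markers, 5 rose in epithelium and 11 in mesenchyme at E13.5 relative to E11.5. Their summed level was 95.3 to 137 FPKM in E13.5 mesenchyme and 32.4 to 36.6 FPKM in E11.5 mesenchyme. In epithelium it was 751 to 3699 FPKM at E13.5 and 332 to 378 FPKM at E11.5. Their median log2 difference between the tissues was 3.90 at E13.5 and 3.50 at E11.5, beside 3.80 for Shh at both stages. The summed level of the 10 neuron markers was 21.7 to 35.6 FPKM in E13.5 epithelium and 54.0 to 171 FPKM in E11.5 epithelium, 3 of the 10 fell, and none was at 0 in all libraries of a group. The part of the epithelial and neuron markers in the epithelium changes of Shh, Gli1 and Boc was not tested. Nor was that of epithelial cells left in the mesenchyme libraries in the level of Shh there and its fall.

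Ptch1 encodes the receptor that holds Smo inactive and is itself induced by the pathway. It was at 6.04, 7.12 and 5.67 FPKM in E13.5 epithelium, against 8.16, 6.22 and 4.31 FPKM in E13.5 mesenchyme. In the E11.5 groups its level was 9.46, 9.30 and 17.5 FPKM in epithelium, against 10.7, 9.72 and 9.77 FPKM in mesenchyme. The tissues overlapped at both stages, and all E13.5 libraries lay below all E11.5 libraries of their tissue. Replicate 3 of E11.5 epithelium was far above its group.

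In mesenchyme Ptch1 fell by 0.72 ± 0.21 on the log2 scale (adjusted p = 0.0254, edgeR), to 0.608 of its E11.5 level. Leaving out 1 library at a time moved the adjusted p to between 0.00456 and 0.0820, and the call was lost without any one of the 3 E11.5 mesenchyme libraries or without replicate 2 of E13.5 mesenchyme. In epithelium the change was −0.95 ± 0.26 and did not pass (adjusted p = 0.0681, edgeR). Without replicate 3 of E11.5 epithelium it was −0.58 ± 0.12, with an adjusted p of 0.0419. The tissue difference was 0.02 ± 0.24 at E13.5 and 0.31 ± 0.25 at E11.5 and did not pass (adjusted p = 0.963 and 0.547, edgeR).

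Hhip encodes a membrane protein that binds hedgehog ligands and takes them away from Ptch1. It had the lowest levels of the receptor-side members, at 0.361, 0.302 and 0.895 FPKM in E13.5 epithelium, against 1.22, 1.08 and 0.810 FPKM in E13.5 mesenchyme. At E11.5 it was at 0.531, 0.607 and 1.49 FPKM in epithelium, against 0.332, 0.335 and 0.454 FPKM in mesenchyme. In each epithelium replicate 3, the library with an unnumbered name, was well above the other two. The tissues did not overlap at E11.5, where epithelium was higher, and overlapped at E13.5 through replicate 3 alone.

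In mesenchyme Hhip rose by 1.45 ± 0.21 on the log2 scale, a 2.74-fold higher level at E13.5 than at E11.5 (adjusted p = 0.000934, edgeR), and it passed under all 17 alternatives. In epithelium its change was −0.75 ± 0.56 and did not pass (adjusted p = 0.448, edgeR). The tissue difference was −0.97 ± 0.44 at E13.5 (adjusted p = 0.234) and 1.29 ± 0.40 at E11.5 (adjusted p = 0.116, edgeR), and neither passed. Without replicate 3 of E13.5 epithelium the E13.5 difference was −1.64 ± 0.26 and passed (adjusted p = 0.00357). Without replicate 3 of E11.5 epithelium the E11.5 difference was 0.65 ± 0.19 (adjusted p = 0.0583, edgeR).

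Gas1 encodes a lipid-anchored surface protein that binds Shh and aids its reception, and it was the most abundant member at both stages in both tissues. It was at 69.7, 62.5 and 89.1 FPKM in E13.5 epithelium, against 92.8, 94.6 and 101.03 FPKM in E13.5 mesenchyme. The E11.5 values were 52.7, 51.5 and 39.5 FPKM in epithelium, against 47.0, 59.0 and 62.2 FPKM in mesenchyme. All E13.5 libraries lay above all E11.5 libraries of the same tissue by a small margin in epithelium and a wide one in mesenchyme.

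In mesenchyme Gas1 rose by 0.75 ± 0.09 on the log2 scale, 1.69-fold (adjusted p = 0.000364, edgeR). In epithelium it was 0.63 ± 0.18 and did not pass (adjusted p = 0.0777, edgeR). The tissue difference was −0.36 ± 0.15 at E13.5 and did not pass (adjusted p = 0.213), and without replicate 3 of E13.5 epithelium it was −0.53 ± 0.10 with an adjusted p of 0.00786.

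Boc, an immunoglobulin-family co-receptor of Shh related to Cdon, was the 1 member that rose in both tissues. It was at 15.4, 14.99 and 22.7 FPKM in E13.5 epithelium, against 20.9, 21.8 and 21.5 FPKM in E13.5 mesenchyme. In the E11.5 groups its level was 8.89, 8.78 and 7.72 FPKM in epithelium, against 6.02, 9.20 and 9.76 FPKM in mesenchyme. The stages did not overlap in either tissue, and the tissues overlapped at both stages.

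Boc rose by 1.34 ± 0.15 on the log2 scale in mesenchyme, 2.54-fold (adjusted p = 0.000204, edgeR), and by 1.07 ± 0.19 in epithelium, 2.09-fold (adjusted p = 0.0250). The mesenchyme rise of Gas1 and of Boc passed under all 17 alternatives and the epithelium rise of Boc under 12 of 17. The call in epithelium was lost without replicate 1 or 2 of E11.5 epithelium (adjusted p = 0.108 and 0.110, edgeR) and without replicate 1 of E13.5 epithelium (0.0792). In those fits 52 to 83 genes of the whole table passed. The tissue difference of Boc at E13.5 was −0.25 ± 0.18 (adjusted p = 0.427, edgeR), and without replicate 3 of E13.5 epithelium it was −0.49 ± 0.09 with an adjusted p of 0.00801. In that replicate, mesenchyme markers and the levels of Gas1, Boc, Hhip, Gli2 and Gli3 were all higher than in the other E13.5 epithelium libraries. Those of Shh, Ptch1, Smo and Gli1 were lower. Gli1, which was higher in E13.5 mesenchyme than in epithelium, was at 8.64 FPKM in that replicate against 9.85 and 9.91 FPKM. The part of these markers in the result was not tested.

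Smo encodes the transducer that passes the signal to the Gli factors. It was at 36.7, 37.9 and 36.1 FPKM in E13.5 epithelium, against 36.0, 39.4 and 41.0 FPKM in E13.5 mesenchyme. At E11.5 it was at 39.8, 39.6 and 39.3 FPKM in epithelium, against 37.8, 40.2 and 45.0 FPKM in mesenchyme. Neighbouring groups in the order of its means overlapped throughout, while the epithelium stages did not, with at most 37.9 FPKM at E13.5 and at least 39.3 FPKM at E11.5. Its log2 difference between the tissues was −0.05 ± 0.10 at E13.5 and 0.00 ± 0.07 at E11.5, and that between the stages was −0.10 ± 0.09 in epithelium and −0.11 ± 0.08 in mesenchyme, with adjusted p of 0.341 or more in edgeR. The sign of the E11.5 tissue difference changed with the scaling used, and it was −0.01 with RLE size factors.

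Gli1, an activator and a direct target of the pathway, was the only Gli gene to pass in the main edgeR fits, without block or covariate. It was at 9.85, 9.91 and 8.64 FPKM in E13.5 epithelium, against 17.0, 14.3 and 15.03 FPKM in E13.5 mesenchyme. The E11.5 values were 17.4, 16.9 and 19.0 FPKM in epithelium, against 18.7, 23.4 and 24.2 FPKM in mesenchyme. The E13.5 tissues did not overlap, the E11.5 tissues overlapped through 1 library of each, and the stages did not overlap in either tissue.

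Relative to E11.5, Gli1 fell at E13.5 by 0.91 ± 0.11 on the log2 scale in epithelium (adjusted p = 0.0111, edgeR) and by 0.54 ± 0.11 in mesenchyme (adjusted p = 0.00397). These left 0.533 of the E11.5 level in epithelium and 0.686 in mesenchyme. The mesenchyme fall passed under all 17 alternatives and the epithelium fall under 12 of 17, with adjusted p of 0.0659 to 0.0744 without replicate 1 or 2 of E11.5 epithelium or replicate 1 of E13.5 epithelium. In the fits without those libraries 52 to 83 genes of the whole table passed. At E13.5 Gli1 was lower in epithelium than in mesenchyme by 0.69 ± 0.12 on the log2 scale (adjusted p = 0.0441), and this call passed under 7 of 17 alternatives. It was lost without replicate 1 or 2 of E13.5 epithelium (adjusted p = 0.196 and 0.0974, edgeR) and without any single E13.5 mesenchyme library (0.153 to 0.208). Of the whole table, 114 genes passed without that replicate 2 and 0 in the others of these fits. At E11.5 the difference was −0.26 ± 0.10 and did not pass (adjusted p = 0.189, edgeR).

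Gli2, the main activator of target genes, was at 8.58, 9.93 and 10.3 FPKM in E13.5 epithelium, against 10.6, 11.4 and 11.9 FPKM in E13.5 mesenchyme. In the E11.5 groups its level was 10.7, 10.8 and 9.52 FPKM in epithelium, against 11.9, 12.99 and 13.2 FPKM in mesenchyme. All 3 epithelium libraries lay below all 3 mesenchyme libraries at either stage, but the differences of −0.21 ± 0.12 at E13.5 and −0.25 ± 0.08 at E11.5 did not pass (adjusted p = 0.296 and 0.144, edgeR). The stage change was −0.10 ± 0.12 in epithelium and −0.20 ± 0.08 in mesenchyme (adjusted p = 0.654 and 0.0873, edgeR). DESeq2 passed Gli2 between the E11.5 tissues (adjusted p = 0.0404) and between the mesenchyme stages (0.0371).

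Gli3, which acts mainly as a repressor, was at 7.39, 7.82 and 9.98 FPKM in E13.5 epithelium, against 12.6, 10.1 and 8.89 FPKM in E13.5 mesenchyme. At E11.5 it was at 8.59, 8.07 and 11.7 FPKM in epithelium, against 13.52, 11.3 and 11.7 FPKM in mesenchyme. In all 4 groups the library with an unnumbered name was the highest. The tissue difference was −0.31 ± 0.19 at E13.5 and −0.32 ± 0.17 at E11.5, and neither passed (adjusted p = 0.352 and 0.363, edgeR). With the library name number as a block, an alternative chosen after seeing the data, the E11.5 difference was −0.33 ± 0.06 and passed (adjusted p = 0.0232, edgeR). The stage change was −0.17 ± 0.19 in epithelium and −0.24 ± 0.15 in mesenchyme and did not pass (adjusted p = 0.636 and 0.265, edgeR).

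Whether the tissue difference itself changed between the stages was tested as an interaction over all 12 libraries, in which 0.204% of 22110 genes passed in edgeR. Of the 9 members 0 passed and 2 had an unadjusted p under 0.05, as did 3319 of the 22110 genes. DESeq2 passed 1 member, Hhip, and 4.86% of all genes. For Hhip the E13.5 difference less the E11.5 difference was −2.24 ± 0.65 (adjusted p = 0.159, edgeR; 0.0169 in DESeq2). Without replicate 3 of E13.5 epithelium it was −2.90 ± 0.54 with an adjusted p of 0.00595 (edgeR). In that fit 3096 of 23092 genes passed. With the 4 unnumbered libraries left out, an alternative chosen after seeing the data, 3 members passed in edgeR, as did 6766 of 22292 genes. They were Hhip at −2.09 ± 0.33, Boc at −0.45 ± 0.09 and Gas1 at −0.39 ± 0.09. For Shh the interaction was 0.02 ± 0.44, and for Gli1 −0.40 ± 0.15 (adjusted p = 0.992 and 0.257, edgeR).

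**Figure D3:**
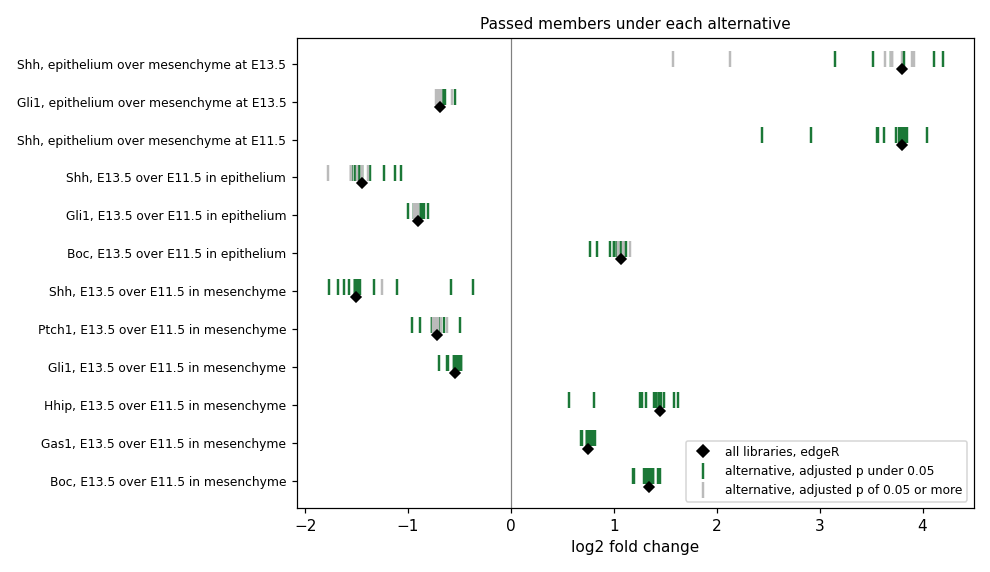
Log2 fold change (horizontal axis) of each member that passed a comparison, as fitted over all libraries (black diamonds) and under each of the 17 alternatives (bars, green where the adjusted p was under 0.05 and grey elsewhere). No bar crossed 0, and all 17 bars were green for Shh between the E11.5 tissues and for Gli1, Hhip, Gas1 and Boc between the mesenchyme stages.

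Beyond the members, a list of 11 genes for other ligands, ligand release and reception was followed with stage. In mesenchyme 5 of 11 rose (Cdon, Scube2, Dhh, Ihh and Disp1), where 22.0% of all genes did, with a list median of 0.45 on the log2 scale. In epithelium 3 of 11 rose (Cdon, Scube2 and Disp1), where 5.47% of all genes did, with a median of 0.59. The number of calls in epithelium was 0 without replicate 1 or 2 of E11.5 epithelium or replicate 1 of E13.5 epithelium. It was 2 without replicate 3 of E11.5 or replicate 2 of E13.5 epithelium. Without replicate 3 of E13.5 epithelium it was 5, with 4 higher at E13.5 and 1 lower, where 3676 of 21346 genes passed. The adjusted p over these fits was up to 0.176 for Cdon, 0.153 for Disp1 and 0.0744 for Scube2 (edgeR). Disp1, which releases lipid-bearing ligand from the cell and is named after its values were seen, changed by 0.45 ± 0.09 in mesenchyme and 0.59 ± 0.13 in epithelium. Cdon, a co-receptor related to Boc, averaged 30.2 ± 1.02 FPKM in E13.5 mesenchyme and 10.97 ± 0.91 FPKM in E11.5 mesenchyme (SD, n = 3 each). Its log2 change there was 1.44 ± 0.08 (SE, adjusted p = 7.61e-06, edgeR), and in epithelium 1.01 ± 0.24 (adjusted p = 0.0469).

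Scube2, a secreted protein that helps release Shh from the cells that make it, averaged 1.03 ± 0.43 FPKM in E13.5 mesenchyme and 0.0945 ± 0.0041 FPKM in E11.5 mesenchyme. It rose by 3.38 ± 0.36 on the log2 scale in mesenchyme and by 2.91 ± 0.39 in epithelium. The other hedgehog ligands, Dhh and Ihh, were scarce, but in E13.5 mesenchyme both averaged above Shh, which was at 0.196 FPKM. Dhh, the ligand of Schwann cells and the gonad, averaged 0.414 ± 0.106 FPKM in E13.5 mesenchyme and 0.0490 ± 0.0116 FPKM in E11.5 mesenchyme, and Ihh, the ligand of growing cartilage, averaged 0.893 ± 0.351 FPKM and 0.124 ± 0.035 FPKM in the same groups. Both rose in mesenchyme, Dhh by 3.01 ± 0.38 and Ihh by 2.80 ± 0.39 on the log2 scale.

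Markers of other cell types moved with these mesenchyme changes. The summed FPKM of the 7 chondrocyte markers was 223 to 285 in E13.5 mesenchyme and 74.8 to 87.9 in E11.5 mesenchyme, that of the 7 osteoblast markers 160 to 297 and 8.79 to 13.46, and that of the 7 Schwann and glial markers 25.6 to 39.0 and 8.35 to 10.9. Of these lists 6 of 7, 6 of 7 and 5 of 7 genes rose. The 9 skeletal muscle markers summed to 229 to 452 FPKM in E13.5 mesenchyme and 24.8 to 73.9 in E11.5 mesenchyme, the 8 endothelial markers to 90.3 to 102 and 58.6 to 65.1, and the 7 macrophage markers to 18.6 to 49.4 and 8.63 to 13.06, and 8 of 9, 7 of 8 and 6 of 7 rose. In all 6 lists no defining marker was at 0 in all 3 libraries of a group. Their part in the rise of Hhip, Gas1, Boc, Ihh and Dhh was not tested.

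Between the tissues, Scube1 was lower in E11.5 epithelium than in E11.5 mesenchyme by 1.05 ± 0.08 on the log2 scale, and Scube3 was higher by 0.94 ± 0.14. Both are secreted relatives of Scube2. Lrp2, an endocytic receptor for Shh named here after its values were seen, was the 1 gene of this list to pass as higher in epithelium at E13.5 (log2 difference 3.15 ± 0.53) and passed at E11.5 too (3.22 ± 0.68), at no more than 0.572 FPKM in any library. Its E13.5 call was kept only without replicate 3 of E13.5 epithelium (adjusted p of up to 0.212 without another library), and its E11.5 call was lost without replicate 1 or 2 of E11.5 epithelium or replicate 2 or 3 of E11.5 mesenchyme (up to 0.125, edgeR).

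Downstream of Smo, the 26 genes of transduction in the cilium and of Gli processing had few calls. In mesenchyme 1 rose and 4 fell with stage, where 22.0% and 17.0% of all genes did, and in epithelium 1 fell, where 3.01% did. Csnk1e, a casein kinase that acts in the pathway, fell by 0.58 ± 0.08 on the log2 scale in mesenchyme and by 0.41 ± 0.10 in epithelium. In mesenchyme Mgrn1, a ubiquitin ligase that restrains Smo, rose by 0.33 ± 0.08, and 3 genes fell besides Csnk1e. They were Stk36, the fused kinase, by 0.50 ± 0.15, Arrb1, an arrestin that moves Smo to the cilium, by 0.32 ± 0.10, and Evc, a protein at the base of the cilium, by 0.39 ± 0.13. Leaving out 1 mesenchyme library gave 1 to 6 calls, with 1 call without replicate 2 of E11.5 mesenchyme, 2 without replicate 2 or 3 of E13.5 mesenchyme, 3 without replicate 3 of E11.5 mesenchyme and 6 without replicate 1 of E13.5 mesenchyme. The fall of Csnk1e passed in all 6 of these fits and the rise of Mgrn1 in 5, while Arrb1 passed in 2 and Stk36 and Evc in 1 each. In epithelium Csnk1e lost its call without replicate 1 or 2 of either stage (adjusted p of up to 0.193, edgeR). Without replicate 3 of E13.5 epithelium 4 genes of the list passed, as did 3676 of 21346 genes (17.2%). Between the tissues, Evc2, the ciliary partner of Evc, was lower in E11.5 epithelium by 0.40 ± 0.09, a call kept only without replicate 3 of E11.5 epithelium (adjusted p of up to 0.164 without another library). At E13.5 0 of 26 passed in edgeR and 5 had an unadjusted p under 0.05, as did 4865 of 20584 genes. DESeq2 passed 3, and 14.1% of all genes. Without replicate 3 of E13.5 epithelium 9 passed in edgeR, as did 6050 of 21466 genes. Of 12 genes for building the primary cilium, 0 passed in edgeR in either stage comparison. In mesenchyme 3 of these 12 had an unadjusted p under 0.05, as did 9582 of 20271 genes, and DESeq2 passed 2, and 43.6% of all genes. In epithelium the counts were 1 and 0, beside 5354 of 20467 genes and 18.5%. Without replicate 1 of E13.5 mesenchyme 4 of the 12 passed in mesenchyme, as did 8303 of 21139 genes (39.3%). Without replicate 3 of E11.5 epithelium 1 passed in epithelium, as did 2349 of 21326 genes.

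A list of 19 further genes known as hedgehog targets in craniofacial or other embryonic tissue had calls in both directions with stage. In mesenchyme 9 fell and 5 rose at E13.5 relative to E11.5, where 17.0% of all genes fell and 22.0% rose. In epithelium 7 fell and 2 rose, where 3.01% fell and 5.47% rose. Leaving out 1 library gave 13 to 14 calls in mesenchyme and 2 to 13 in epithelium. The epithelium count was 2 without replicate 1 or 2 of E11.5 epithelium, 3 without replicate 1 of E13.5 epithelium, 6 without replicate 3 of E11.5 epithelium and 13 without replicate 3 of E13.5 epithelium. In the last of these fits 3676 of 21346 genes passed. The list median was −0.40 on the log2 scale in mesenchyme and −0.25 in epithelium. The 5 that rose in mesenchyme were Igfbp6, Osr2, Cxcl14, Prdm1 and Bcl2, and the 2 in epithelium were Cxcl14 and Tiam1, named after their values were seen. Prdm1 lost its call without replicate 2 or 3 of E11.5 mesenchyme or replicate 2 of E13.5 mesenchyme (adjusted p of up to 0.0723, edgeR), and Cxcl14 and Tiam1 kept theirs in epithelium only without replicate 3 of E13.5 epithelium (up to 0.135 and 0.160 without another library). Forkhead factor genes led the falls. Foxd2 averaged 0.519 ± 0.174 FPKM in E13.5 mesenchyme and 8.07 ± 1.07 FPKM in E11.5 mesenchyme, and 0.492 ± 0.286 FPKM in E13.5 epithelium and 6.13 ± 0.46 FPKM in E11.5 epithelium (SD, n = 3 each).

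On the log2 scale Foxd2 fell by 3.97 ± 0.26 in mesenchyme and by 3.64 ± 0.47 in epithelium, Foxl1 by 3.30 ± 0.29 and 4.11 ± 0.21, Foxd1 by 2.63 ± 0.26 and 2.98 ± 0.43, and Foxf2 by 2.24 ± 0.18 and 2.78 ± 0.36. Foxf2 is known for its part in forming the palate. Hsd11b2, an enzyme that inactivates glucocorticoids, fell by 3.63 ± 0.24 in mesenchyme and 3.24 ± 0.26 in epithelium, and Mycn, a driver of proliferation, by 2.28 ± 0.17 and 1.31 ± 0.25. The adjusted p of these 6 genes was 0.000131 or less in mesenchyme and 0.0278 or less in epithelium (edgeR). In mesenchyme all 6 passed in each fit that left out 1 library, and in epithelium Foxl1 and Hsd11b2 did. Foxd2, Foxd1, Foxf2 and Mycn lost their epithelium call without replicate 1 or 2 of E11.5 epithelium and, but for Foxd2, without replicate 1 of E13.5 epithelium (adjusted p of up to 0.0690, 0.0838, 0.0713 and 0.124, edgeR). The piece dissected differed between the stages, whole mandible at E11.5 and tooth germ at E13.5, and its part in these falls cannot be told apart from that of age. Between the tissues 2 of 19 were higher in epithelium at E13.5 and 4 of 19 at E11.5, where 1.62% and 4.75% of all genes were. With 1 library left out the counts passing in either direction were 0 to 11 at E13.5 and 1 to 5 at E11.5. The 11, without replicate 3 of E13.5 epithelium, were 6 higher and 5 lower in epithelium, and the other E13.5 fits gave 0. The 5, without replicate 3 of E11.5 epithelium, were 4 higher and 1 lower. The E11.5 count was 1 without replicate 1 of E11.5 epithelium. It was 2 without replicate 2 of E11.5 epithelium or without replicate 2 or 3 of E11.5 mesenchyme. Foxl1 was among the higher ones at E11.5, by 0.93 ± 0.15, and did not pass without replicate 1 of E11.5 epithelium (adjusted p = 0.0668, edgeR).

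**Figure D4:**
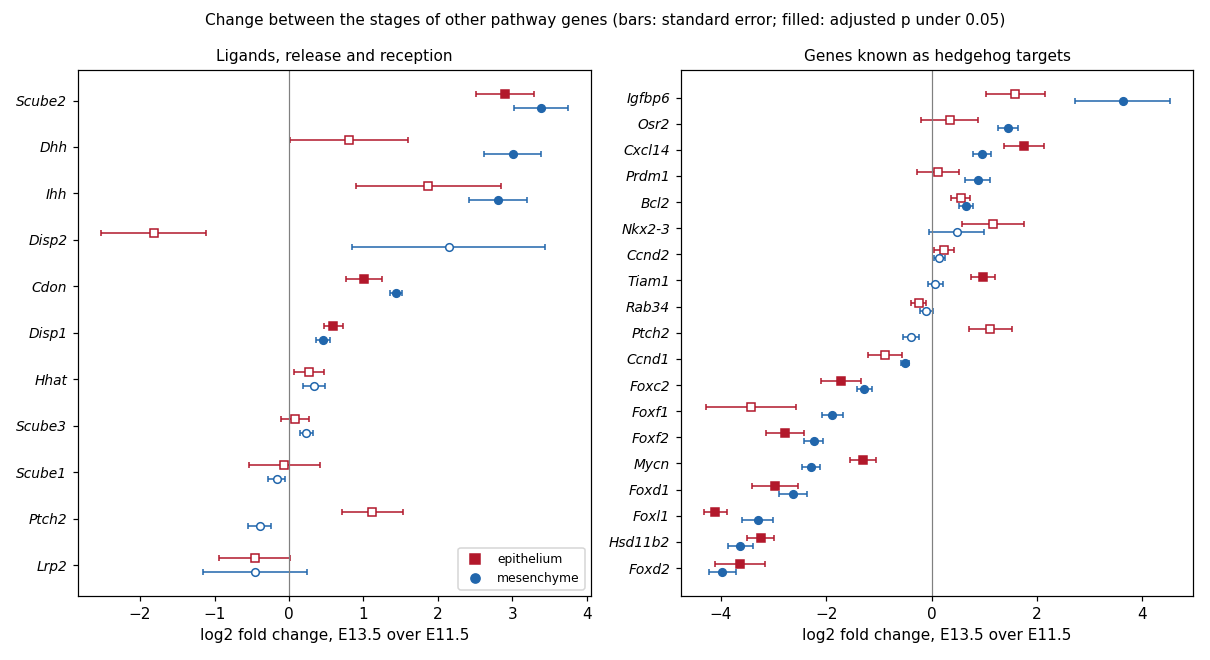
Log2 fold change at E13.5 relative to E11.5 (horizontal axes), with its standard error, of the genes for ligands, release and reception (left) and of the genes known as hedgehog targets (right). Red squares are epithelium, blue circles are mesenchyme, and filled symbols had an adjusted p under 0.05. Scube2 stood highest on the left at 3.38 in mesenchyme, and Foxd2 at −3.97, Hsd11b2 at −3.63 and Foxl1 at −3.30 stood lowest on the right in mesenchyme.

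Of 15 signals of the dental placode and enamel knot, the tissue in which Shh is made, 6 were higher in epithelium at E13.5 and 10 of 14 tested at E11.5, where 1.62% and 4.75% of all genes were. Wnt6, Wnt7b, Wnt10b and the progenitor factor Sox2 were higher in epithelium at both stages. Their log2 differences at E13.5 were 3.86 ± 0.48, 3.86 ± 0.51, 3.73 ± 0.67 and 3.35 ± 0.50, and at E11.5 they were 3.16 ± 0.15, 3.42 ± 0.18, 3.42 ± 0.28 and 3.38 ± 0.17, in that order of genes. All 4 passed at E11.5 in each fit that left out 1 library. At E13.5 all 4 lost their call without replicate 1 of E13.5 epithelium or any single E13.5 mesenchyme library, and Wnt10b and Sox2 also without replicate 2 of E13.5 epithelium, with adjusted p of up to 0.207 for Wnt6, Wnt7b and Sox2 and 0.218 for Wnt10b (edgeR). The E13.5 count of the list was 0 in the first 4 of these fits and 3 without replicate 2 of E13.5 epithelium. Without replicate 3 of E13.5 epithelium it was 12, with 10 higher in epithelium and 2 lower. Within the epithelium these signals did not all follow Shh with stage. Fgf8, an early jaw signal, fell by 3.63 ± 0.28 on the log2 scale (adjusted p = 0.00329, edgeR), while Wnt10b rose by 2.55 ± 0.54 (adjusted p = 0.0360) and Bmp2 by 0.96 ± 0.20 (adjusted p = 0.0336). The fall of Fgf8 passed in each fit that left out 1 library. The rises of Wnt10b and Bmp2 were lost without replicate 1 or 2 of either stage, and that of Wnt10b also without replicate 3 of E11.5 epithelium, with adjusted p of up to 0.140 for each. The list had 7 calls with stage in epithelium, 1 without any single one of those 4 libraries, 5 without replicate 3 of E11.5 and 11 without replicate 3 of E13.5 epithelium. In the last of these fits 3676 of 21346 genes passed. Bmp2 also rose in mesenchyme, by 1.88 ± 0.14.

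The genes most like Shh across the 12 libraries were Cldn7, Prss22, Krt18, Samd10 and Arg1, with Pearson's r of 0.973, 0.971, 0.964, 0.949 and 0.946 over log2 FPKM values and Spearman's rho of 0.832 to 0.923. Cldn7, a tight junction protein, averaged 5.02 FPKM in E13.5 epithelium and 0.819 FPKM in E13.5 mesenchyme, and 8.85 FPKM in E11.5 epithelium and 0.811 FPKM in E11.5 mesenchyme. Krt18, a keratin of simple epithelia, averaged 18.2, 3.44, 26.8 and 3.86 FPKM in the same order of groups. The genes most like Gli1 were Wdr62, Elp3, Mical1, Me2 and Mms19, with r of 0.943 to 0.925. Wdr62, a spindle protein, averaged 1.34 and 1.79 FPKM in E13.5 epithelium and mesenchyme and 2.43 and 3.30 FPKM in E11.5 epithelium and mesenchyme. These are the top 5 of 12655 genes searched, the points share libraries and group structure, and the correlations are given as a description.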

How the data were processed

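RNA from 12 libraries (4 groups of 3) was sequenced in read pairs after selection of poly(A) RNA. The submitters' processing notes name Cutadapt 1.9, HISAT2 2.0.4, StringTie 1.3.4d, edgeR and the build mm10. The deposited FPKM values, computed by the authors from assembled transcripts, correct for gene length and for library size. The deposited counts are whole numbers whose sum exceeds the read pairs sequenced. They were therefore treated as estimated counts rounded by the authors, which makes counting error look smaller than it is. Nothing further was rounded.

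Each comparison was fitted over its own 6 libraries with edgeR 4.0.16 in R 4.3.3 (filterByExpr, TMM, glmQLFit, glmQLFTest), and the interaction over all 12. The tests were two-sided, with Benjamini-Hochberg adjustment over all genes tested and a threshold of 0.05. Standard errors were derived from the fold change and its F statistic. DESeq2 1.42.0 and limma 3.58.1 on log2(FPKM + 0.5) were alternatives, as were other pseudocounts (0.1 and 1), RLE size factors, no filter, a fit over 12 libraries, blocks, a further limit of 1 on the log2 fold change and leaving out each library. The code was tested on simulated data. The members and the 15 gene lists were chosen with earlier results of these data known. Named list genes are those that passed in at least 1 comparison, at most 6 a list by smallest p, from the lists of reception, transduction, cilium, targets and dental signals, and genes like Shh and Gli1 are the top 5 by Pearson's r on log2(FPKM + 0.5) among genes with a mean of 1 FPKM in some group. Biological replicate numbers did not pair libraries, with correlations of same-numbered deviations from −0.273 to 0.207. With the numbers in the library names, as the labels give them, all 3 pairs between the E11.5 tissues had correlations over 0.1 (0.143, 0.171 and 0.322). In no other comparison did all 3 pairs. The library name number may therefore pair the libraries there. The unnumbered library lay apart in each group, and a difference shared by unnumbered libraries cannot be told apart from pairing in these values. Sequences come from RefSeq (GRCm38.p6).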

Additional observations from a re-analysis of the deposited data

How the results depend on the processing

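Of the values recomputed under the alternatives for the members and the named list genes, 1281 kept their direction and side of the threshold, 42 newly passed, 198 no longer passed and 37 changed sign. The number of members passing was 2 between the E13.5 tissues. It was 1 with a further limit of 1 on the log2 fold change, 0 with limma on log2(FPKM + 0.5) or log2(FPKM + 1), 0 without the filter on low counts, 0 with the library name number as a block and 5 with numbered libraries only. In these limma, unfiltered and block fits 0 genes of the whole table passed, with 5525, 5516, 5120 and 4531 at an unadjusted p under 0.05, and with numbered libraries only 7463 of 20931 passed (edgeR). Between the E11.5 tissues it was 1, and 3 with DESeq2, 5 with unnumbered names as a covariate, 2 with the library name number as a block and 6 with numbered libraries only, in fits that passed 12.4%, 19.8%, 11.6% and 32.9% of all genes. For stage in epithelium it was 3, and 5 with DESeq2 and with the fit over 12 libraries, 0 with the library name number as a block and 6 with numbered libraries only, in fits that passed 18.5%, 17.3%, 0.264% and 38.8% of all genes. In the block fit 4618 of 20467 genes had an unadjusted p under 0.05. For stage in mesenchyme it was 6, and 3 with the further limit of 1, which Ptch1, Gli1 and Gas1 did not reach. This limit is not among the 17 alternatives counted for single members. The share of all genes that met it was not computed, so these member counts have no background beside them. For the interaction it was 0, and 1 with DESeq2 and 3 with numbered libraries only, where 4.86% and 30.4% of all genes passed. The cause was not tested. The library name block and the numbered libraries alone were chosen after seeing the data.

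With the biological replicate number as a block in edgeR, which does not pair the libraries, 0 members passed between the E13.5 tissues and 0 for stage in epithelium, and 8 passed for stage in mesenchyme. Over all genes the block moved the count passing for stage in epithelium to 54, against 1736 without it, between the E11.5 tissues to 602, against 1280, between the E13.5 tissues to 0 (4765 at an unadjusted p under 0.05), against 376, and for stage in mesenchyme to 9199, against 7902. For stage within a tissue, this block and the library name block group the libraries alike and are the same fit. That fit enters the 17 alternatives of the stage calls under both names.

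Leaving out 1 library at a time gave 0 to 5 members between the E13.5 tissues, 1 to 3 between the E11.5 tissues, 0 to 3 for stage in epithelium, 4 to 6 for stage in mesenchyme and 0 to 1 for the interaction. The 5 and the 1 came without replicate 3 of E13.5 epithelium. Without it 6050 genes passed between the E13.5 tissues, against 376 with it, and DESeq2 passed 2673. For the interaction 3096 genes passed without it, against 45 with it (edgeR). Between the E13.5 tissues 0 genes of the whole table passed without replicate 1 of E13.5 epithelium or any single E13.5 mesenchyme library. Without replicate 2 of that epithelium 114 passed. For stage in epithelium 52 to 83 passed without replicate 1 or 2 of E11.5 epithelium or replicate 1 of E13.5 epithelium. Without replicate 3 of E13.5 epithelium 3676 passed for stage, against 1736 with it. Between the E11.5 tissues the count was 583 to 3723 and for stage in mesenchyme 5911 to 8303. Single calls lost in these fits are read against those counts.

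The values that changed sign did not pass in any fit. Between the E11.5 tissues the log2 difference of Smo was −0.0117 with RLE and DESeq2, −0.0108 with numbered libraries only and −0.0471, −0.0476 and −0.0466 with limma at pseudocounts of 0.5, 0.1 and 1, and that of Boc was −0.0117 with numbered libraries only. Leaving out 1 library gave −0.0168 to 0.0296 for Smo, −0.0687 to 0.17 for Boc and −0.0632 to 0.47 for Ptch1 there, −0.20 to 0.30 for Ptch1 between the E13.5 tissues and −0.32 to 0.0149 for Gli3 with stage in epithelium. The interaction of Shh was −0.79, −0.41 and −0.86 with limma at those pseudocounts, −0.0504 with the replicate block, −0.0937 with unnumbered names as a covariate and −0.10 with the library name block. With numbered libraries only it was 0.33 for Ptch1 and −0.0888 for Gli2. Leaving out 1 library gave interactions of −0.26 to 0.34 for Shh, −0.49 to 0.10 for Ptch1, −0.0111 to 0.13 for Gli2 and −0.13 to 0.21 for Gli3.

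Of the members, Shh in mesenchyme rested on the fewest counts, 35 to 178 a library. Mesenchyme markers in the epithelium libraries limit how far a tissue difference can be read as one of cell type. Epithelial markers in the mesenchyme libraries limit in the same way how far Shh there can be read as made by mesenchyme.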
